A study of Mus musculus with 4 samples.

Results

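The genes described here are the 3 Slit ligands (Slit1, Slit2 and Slit3), the Robo receptors Robo1, Robo2 and Robo3, and the srGAP genes Srgap1, Srgap2 and Srgap3, whose products bind the cytoplasmic tail of Robo receptors. They are 9 of the 32531 gene rows in the count files. They were chosen by symbol, with the values of the accumbens and dorsal striatum libraries already known, so the levels and fold changes of these genes are given as a description of the libraries and not as independent tests. The study sequenced total RNA from the dissected nucleus accumbens and dorsal striatum of mice aged over 20 months. All animals, in both regions, carried the Drd1-EGFP/Rpl10a transgene of line CP73, in which the promoter of the dopamine receptor gene Drd1 drives an EGFP fusion of a ribosomal protein in direct-pathway neurons. Each region had 2 libraries, all of the sample type "Input", read here as RNA of the whole tissue and not of tagged ribosomes, and the labels name no treatment.

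Slit proteins are large secreted ligands that bind Robo receptors on axons and migrating cells, usually as repellents, and heparan sulfate on the cell surface takes part in the binding. Robo receptors have no enzyme activity of their own and act through proteins that bind their cytoplasmic tail, among them kinases, adaptors and the srGAP proteins. In the developing forebrain Slit and Robo genes are known for the guidance of corticofugal, thalamocortical and dopaminergic axons through and around the striatum, and Slit proteins of the septum and choroid plexus repel migrating olfactory bulb neuroblasts.

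The accumbens differed from the dorsal striatum in a ligand and a receptor of this group, in opposite directions. Slit2 was 2.72-fold higher in accumbens and Robo2 was 1.73-fold lower in accumbens. Both passed an edgeR adjusted p of 0.05, where 0.994% of all tested genes were called higher and 0.29% lower. Neither call held without dorsal striatum replicate 1, and that of Robo2 also failed without dorsal striatum replicate 2. Of the srGAP genes 0 passed in edgeR, DESeq2 or limma-voom, with 1, Srgap1, at an unadjusted p under 0.05 in edgeR, where 19.2% of all tested genes passed. Sequences from the loci of this pair are shown first. The promoters run from 250 bases before to 50 bases after the annotated start, from RefSeq on GRCm38.p6. Capitals mark the TATA box (TATAAA) and the GC box (GGGCGG), searched on both strands, and a search for the CCAAT box (CCAAT) found no match in either promoter.

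The Slit2 promoter at chr5:47982905-47983204, plus strand, is shown because Slit2 is the member that passed in edgeR with a higher level in accumbens. Of the 3 starts listed for Robo2, the promoter at chr16:74411776-74412075, minus strand, is shown because it coincides with the start of the gene in the GENCODE annotation.
Slit2: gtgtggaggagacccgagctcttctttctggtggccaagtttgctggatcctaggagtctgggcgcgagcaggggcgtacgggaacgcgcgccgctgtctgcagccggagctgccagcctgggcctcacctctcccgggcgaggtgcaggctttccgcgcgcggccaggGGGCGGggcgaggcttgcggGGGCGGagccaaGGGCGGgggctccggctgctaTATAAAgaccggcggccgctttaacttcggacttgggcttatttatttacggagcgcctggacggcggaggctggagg
Robo2: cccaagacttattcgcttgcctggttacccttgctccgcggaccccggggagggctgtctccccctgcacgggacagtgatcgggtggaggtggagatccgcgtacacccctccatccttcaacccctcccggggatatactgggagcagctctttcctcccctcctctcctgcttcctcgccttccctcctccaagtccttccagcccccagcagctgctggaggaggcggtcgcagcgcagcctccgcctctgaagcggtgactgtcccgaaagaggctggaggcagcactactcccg

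The Slit2 window held 3 GC boxes followed by 1 TATA box, with no overlap between them, and the Robo2 window held 0 of each. Of 32851 promoter windows of the same length, 35.7% held a GC box, 13.6% a TATA box and 37.4% a CCAAT box. The motifs were not particular to this pair among the members. Srgap1 and Robo3 also held 3 GC boxes each, Slit3 held 6, and Srgap3 held 1 GC box and 1 TATA box. The Robo1 window, like that of Robo2, held 0 of each. The Slit2 window had 30 CpG dinucleotides and the Robo2 window 17, against a median of 7 over all windows. Slit3 and Srgap1 had 41 and 37. The other Robo2 starts, at chr16:75092721-75093020 and chr16:75447244-75447543, had 5 and 9 CpG dinucleotides. The counts do not tell which of these starts was in use, and a match is a description of the letters only.

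The Slit genes also carry a microRNA, miR-218, of which Robo1 is a known target in human cells. The same mature miR-218-5p is encoded in an intron of Slit2 (chr5:48223966-48223986, plus strand) and in an intron of Slit3 (chr11:35616840-35616860, plus strand). It is printed with its seed, bases 2 to 8, in capitals, followed by the stretches of 23 bases around the matches to the seed (AAGCACA, in capitals, transcript strand) in the longest coding transcript of Slit2, Robo1 and Robo2 in GENCODE M21 (GRCm38).
miR-218-5p: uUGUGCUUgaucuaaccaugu
Slit2, chr5:48304535-48304557: actagcagAAGCACAtctacaag
Slit2, chr5:48306838-48306860: tattagcaAAGCACAtaaattaa
Robo1, chr16:73045340-73045362: ggttttaaAAGCACAatcactaa
Robo2, chr16:73895351-73895373: ttggtgatAAGCACAaatctcta
Robo2, chr16:73893025-73893047: gcagacccAAGCACAgcttcttt

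All of these matches lie downstream of the stop codon. Robo3, Srgap2 and Srgap3 held 1 match each, so that 6 of the 9 genes had a match, against 13.1% of 21675 genes searched. The searched stretches of these 9 genes ran from 343 to 4817 bases, with a median of 889 bases over all genes, and a longer stretch holds a match more often. The row of the Slit2 intron hairpin, Mir218-1, had 0 and 7 counts in accumbens and 3 and 1 in dorsal striatum. The Slit3 hairpin row, Mir218-2, had 0 and 0 in accumbens and 2 and 0 in dorsal striatum, so the microRNA itself was not measurable in these libraries.

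The libraries held 8606099 and 8478403 counts assigned to genes in accumbens and 8991788 and 11849134 in dorsal striatum. The labelled regions were compared on marker genes. The summed level of 8 accumbens markers was 1903 to 2483 CPM in accumbens, against 470 to 653 CPM in dorsal striatum, where CPM is the count relative to the TMM-scaled library size, as used throughout. The summed level of 4 dorsal striatum markers was 377 to 429 CPM in accumbens, against 1060 to 1081 CPM in dorsal striatum. The summed level of 12 markers of spiny projection neurons, the main striatal cell type, was 5247 to 6349 CPM in accumbens, against 7146 to 7263 CPM in dorsal striatum. Each library thus stood with its labelled region on both region marker sums. The lists were chosen with earlier results of these data known, so this is not an independent check of the labels. Other measures also stood apart between the regions. The sum of 6 septum markers was 191 and 178 CPM in accumbens, against 167 and 164 CPM in dorsal striatum. The sum of 6 neuroblast markers was 158 and 127 CPM in accumbens, against 98.5 and 107 CPM in dorsal striatum. Marker sums of oligodendrocyte precursors and microglia were also higher in accumbens. The fibroblast sum was only slightly higher, at 48.4 and 50.1 CPM in accumbens, against 46.2 and 43.4 CPM in dorsal striatum. Of its 5 genes 2 were tested. The sum of ependyma and choroid plexus was lower, at 11.8 and 12.6 CPM in accumbens, against 13.8 and 14.8 CPM in dorsal striatum. Of its 6 genes 4 were at 0 in at least 1 library. Marker sums of astrocytes, oligodendrocytes and cholinergic interneurons overlapped. The summed level of 11 markers of cortical glutamatergic neurons was 523 and 328 CPM in accumbens replicates 1 and 2. It was 248 and 151 CPM in dorsal striatum replicates 1 and 2, and 1 of the markers, Neurod6, was at 0 in at least 1 library. Over the 10 that were tested, the median log2 fold change was 0.94. The marker Slc17a7 differed more widely than the sum, at 198 and 79.4 CPM in accumbens, against 32.3 and 0.717 CPM in dorsal striatum (edgeR adjusted p = 0.162). The summed level of 8 markers of GABA interneurons was 306 and 317 CPM in accumbens, against 166 and 205 CPM in dorsal striatum, with Vip at 0 in at least 1 library. The ribosomal RNA row Rn45s took 5.61% and 5.94% of the counts in accumbens, against 2.03% and 3.34% in dorsal striatum, and 16915 and 17417 genes had a count in accumbens, against 19519 and 19532 in dorsal striatum. The part of these measures in the differences below was not tested. With 2 libraries per region, and no label that assigns them to separate animals, the spread given below may be technical. In such tissue samples, fewer cells of a type and less RNA per cell cannot be told apart.

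Of the 9 genes, 8 passed the filter on low counts that left 14493 genes for testing. Robo3 did not. Of the 8, Slit2 was called higher and Robo2 lower in accumbens at an edgeR adjusted p under 0.05, where 1.28% of all tested genes were called, 0.994% higher and 0.29% lower. The 144 calls higher and 42 lower behind these shares were 128 and 62 after upper-quartile scaling, and 72 and 172 when scaled by library size alone, and the calls of Slit2 and Robo2 held under both. In all 8 the libraries of the regions did not overlap, 6 with accumbens higher and 2 with accumbens lower, and the same held for 51.2% of all tested genes, 25.6% in each direction. Since the genes were chosen with this contrast known, nothing is read from these shares. The median log2 fold change of the 8 genes was 0.34, against 0.02 over all tested genes.

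**Figure D1:**
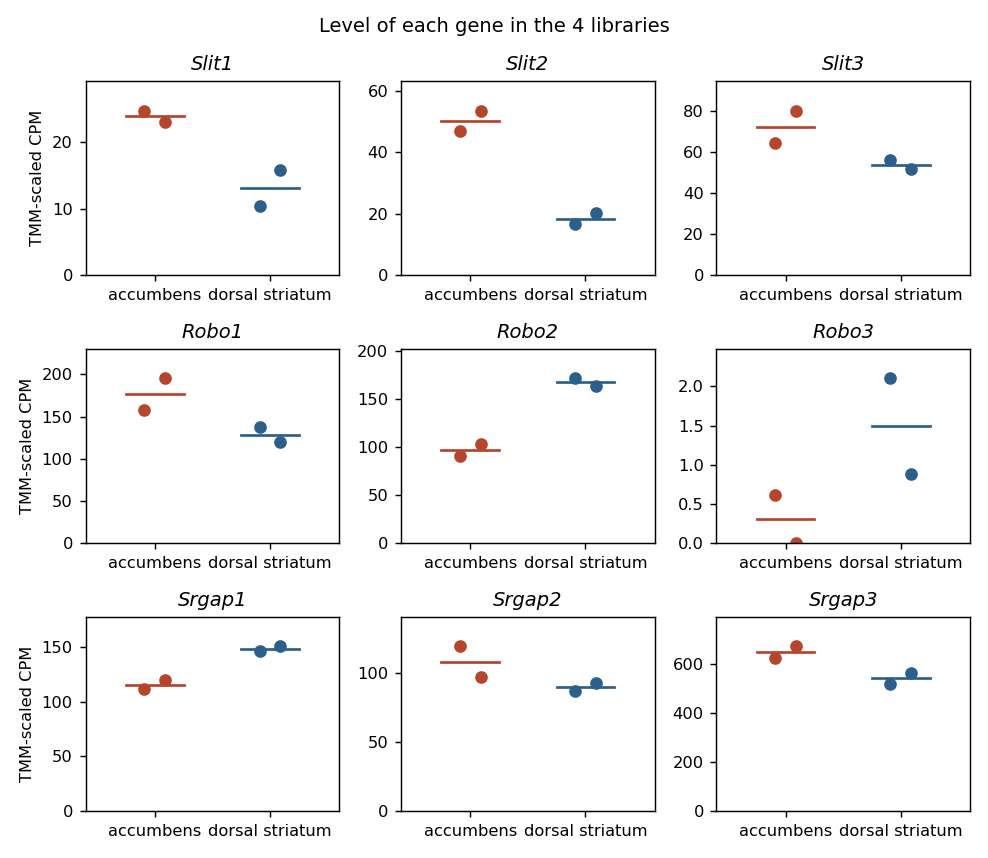
TMM-scaled CPM of each of the 9 genes, 1 panel per gene with an axis from 0, with 1 point per library and a line at the mean of each region (2 libraries each, accumbens left, dorsal striatum right). Slit2 stood at 46.8 and 53.5 CPM in accumbens, against 16.7 and 20.2 CPM in dorsal striatum, and Robo2 at 90.7 and 102.8 CPM in accumbens, against 171 and 164 CPM in dorsal striatum.

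Among the ligands, Slit2 (chromosome 5, 47983138 to 48307733, plus strand) had the largest difference. Slit2 had 378 and 428 counts, or 46.8 and 53.5 CPM, in the accumbens libraries, against 159 and 253 counts, or 16.7 and 20.2 CPM, in the dorsal striatum libraries. Both accumbens libraries were above both dorsal striatum libraries by more than 2-fold. The means were 50.2 ± 4.72 CPM in accumbens, against 18.4 ± 2.44 CPM in dorsal striatum (SD, n = 2 each). On the log2 scale the fold change, accumbens over dorsal striatum, was 1.44 with an SE of 0.22 (edgeR adjusted p = 0.0332), and 5.11% of all tested genes had a larger absolute fold change. Without dorsal striatum replicate 1 it was 1.30 and missed the threshold (edgeR adjusted p = 0.12), in a fit that called 0.71% of its genes. Between the regions the summed level of cortical markers went the same way as Slit2. It was 523 and 328 CPM in accumbens, against 248 and 151 CPM in dorsal striatum. Within each region it went the other way, as replicate 1 had the higher cortical sum and the lower Slit2 level. The part of cortical tissue in the difference was not tested.

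Slit1 (chromosome 19, 41600257 to 41743665, minus strand), a ligand known mainly from the nervous system, had 24.7 and 23.0 CPM in accumbens, against 10.4 and 15.8 CPM in dorsal striatum. The dorsal striatum libraries differed from each other by more than the accumbens libraries did, and the regions did not overlap. Its log2 fold change of 0.86, with an SE of 0.30, missed the threshold (edgeR adjusted p = 0.177). When accumbens replicate 1 or 2 was left out, which assumes that the single remaining library has the spread of the dorsal striatum pair, it was 0.80 and 0.90 and passed (edgeR adjusted p = 0.0322 and 0.0112). These fits called 18.2% and 28.9% of all genes tested in them.

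Slit3 (chromosome 11, 35121224 to 35708507, plus strand), which is also known from vessels and the heart, had 64.2 and 80.1 CPM in accumbens, against 56.2 and 51.6 CPM in dorsal striatum. Accumbens replicate 1 stood closer to dorsal striatum replicate 1 than to accumbens replicate 2. The log2 fold change of 0.42, with an SE of 0.18, missed the threshold (edgeR adjusted p = 0.255). Without accumbens replicate 1 it was 0.57. Together the ligands made up 136 and 157 CPM in accumbens, against 83.3 and 87.6 CPM in dorsal striatum.

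Robo2 (chromosome 16, 73891839 to 74411825, minus strand) is a receptor of Slit proteins on many forebrain axons. Robo2 had 732 and 822 counts, or 90.7 and 102.8 CPM, in accumbens, against 1628 and 2053 counts, or 171 and 164 CPM, in dorsal striatum. Both accumbens libraries were well below both dorsal striatum libraries. The means were 96.7 ± 8.55 CPM in accumbens, against 167 ± 5.27 CPM in dorsal striatum (SD, n = 2 each), and the log2 fold change was −0.79 with an SE of 0.14 (edgeR adjusted p = 0.0458). A larger absolute fold change was seen in 18.7% of all tested genes. The call did not hold without dorsal striatum replicate 1 (−0.78, edgeR adjusted p = 0.158) or without dorsal striatum replicate 2 (−0.83, edgeR adjusted p = 0.106), where 1.09% of genes were called, and with DESeq2 size factors the adjusted p was 0.0494.

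Robo1 (chromosome 16, 72308306 to 73046095, plus strand), the closely related receptor encoded by the neighbouring gene of the same chromosome, had 157 and 195 CPM in accumbens, against 137 and 120 CPM in dorsal striatum. Here both accumbens libraries were the higher ones. The log2 fold change of 0.46, with an SE of 0.16, missed the threshold (edgeR adjusted p = 0.177). Without accumbens replicate 1 it was 0.60. The sum over the 3 receptor genes was 249 and 298 CPM in accumbens, against 310 and 285 CPM in dorsal striatum, and on that sum the regions overlapped.

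Robo3 (chromosome 9, 37415669 to 37433246, minus strand), the divergent receptor known for the crossing of commissural axons, was near the limit of detection. It had 5 and 0 counts in accumbens and 20 and 11 counts in dorsal striatum. The count of 0 in accumbens replicate 2 allows a level of up to 0.374 CPM (3 counts), while the dorsal striatum libraries stood at 2.10 and 0.877 CPM. No fold change is given for it.

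**Figure D2:**
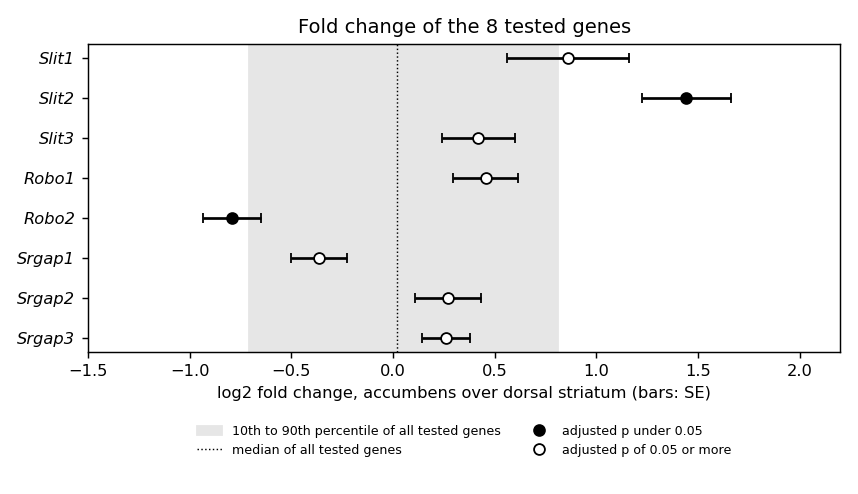
Log2 fold change, accumbens over dorsal striatum, of the 8 tested genes with the SE as bars. The grey band runs from the 10th to the 90th percentile of all tested genes (−0.71 to 0.81) and the dotted line is their median. Slit1, Slit2 and Robo2 lie outside the band, and the filled points, Slit2 and Robo2, passed an adjusted p of 0.05.

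Ratios of counts within a library do not depend on the scaling between libraries. The ratio of Slit2 to Robo2 counts was 0.516 and 0.521 in accumbens and 0.0977 and 0.123 in dorsal striatum, so that its mean was 4.69-fold higher in accumbens. The ratio of Robo1 to Robo2 counts was 1.74 and 1.90 in accumbens and 0.802 and 0.735 in dorsal striatum, which placed Robo1 above Robo2 in both accumbens libraries and below it in both dorsal striatum libraries. The same order held per kilobase of the longest transcript, at 1.97 and 2.16 in accumbens and 0.911 and 0.834 in dorsal striatum. The ratio per kilobase depends on the transcript length that is used. Over the 4 libraries, Robo1 and Robo2 had means of 20.2 and 15.4 CPM per kilobase with the longest transcript. With the median transcript length they had 23.1 and 34.6. All 3 Slit genes together had 0.545 and 0.526 counts per count of Robo genes in accumbens and 0.268 and 0.308 in dorsal striatum. These ratios use the values for which the genes were chosen and carry no test.

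**Figure D3:**
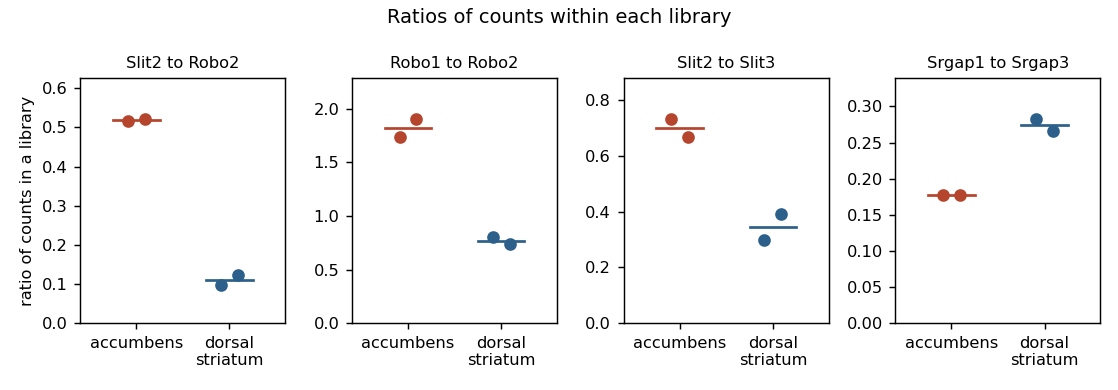
Ratio of raw counts of 2 genes within each library, 1 point per library, with a line at the mean of each region (2 libraries each, accumbens left, dorsal striatum right, axes from 0). The Slit2 to Robo2 ratio was 0.516 and 0.521 in accumbens and 0.0977 and 0.123 in dorsal striatum, and the Srgap1 to Srgap3 ratio was 0.178 and 0.177 in accumbens and 0.282 and 0.266 in dorsal striatum.

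The srGAP genes encode proteins with an F-BAR domain that bends membranes and a GTPase-activating domain. Srgap1 (chromosome 10, 121780991 to 122047315, minus strand), first described as a regulator of Cdc42 downstream of Slit and Robo, had 111 and 119 CPM in accumbens, against 146 and 151 CPM in dorsal striatum. As with Robo2, both accumbens libraries were the lower ones. The log2 fold change of −0.36, with an SE of 0.14, missed the threshold (edgeR adjusted p = 0.201). Without accumbens replicate 2 it was −0.42. Of its exons, 131 bases are shared with Gm48804 on the same strand.

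Srgap2 (chromosome 1, 131285251 to 131527352, minus strand), known for the maturation of dendritic spines, had 119 and 96.8 CPM in accumbens, against 86.6 and 92.6 CPM in dorsal striatum. Accumbens replicate 2 stood close to the dorsal striatum libraries, and the log2 fold change was 0.27 with an SE of 0.16 (edgeR adjusted p = 0.41). It was 0.11 without accumbens replicate 1, 0.41 without accumbens replicate 2 and 0.10 with library size alone. Srgap3 (chromosome 6, 112717971 to 112947266, minus strand), which acts on Rac1 and is linked to spine formation, had 625 and 673 CPM in accumbens, against 518 and 566 CPM in dorsal striatum. Its log2 fold change was 0.26 with an SE of 0.12 (edgeR adjusted p = 0.272), and 0.09 with library size alone. Of its exons, 150 bases lie opposite those of Gm44081, and without a stated strand setting their reads cannot be told apart. The ratio of Srgap1 to Srgap3 counts was 0.178 and 0.177 in accumbens and 0.282 and 0.266 in dorsal striatum.

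Levels of different genes were compared as CPM per kilobase of the longest transcript. Srgap3 was the highest of the 9 genes in both regions, at 73.0 in accumbens and 61.0 in dorsal striatum, above 96.3% and 95.5% of tested genes with a known length. In accumbens it was followed by Robo1 at 23.3, Srgap1 at 14.8, Slit3 at 13.8, Srgap2 at 13.5, Robo2 at 11.3, Slit2 at 5.04, Slit1 at 4.20 and Robo3 at 0.0646. Among these neighbours Srgap1, Slit3 and Srgap2 had overlapping libraries, and the others did not overlap. In dorsal striatum Srgap3 was followed by Robo2 at 19.5, Srgap1 at 19.1, Robo1 at 17.0, Srgap2 at 11.2, Slit3 at 10.3, Slit1 at 2.31, Slit2 at 1.85 and Robo3 at 0.310. There the libraries of Robo2 and Srgap1 overlapped, as did those of Slit1 and Slit2. Slit3 thus led the ligands in each library, with 57.6% and 61.9% of the ligand level per kilobase in accumbens and 75.4% and 67.3% in dorsal striatum. Slit2 took 22.1% and 21.7% in accumbens and 11.8% and 13.8% in dorsal striatum. The places of Robo2 and Srgap2 in these orders depend on the transcript length that is used. With the median transcript length, their means over the 4 libraries were 34.6 and 40.3 CPM per kilobase, against 15.4 and 12.3 with the longest transcript. The annotated Slit3 transcript has only 365 bases after the stop codon.

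**Figure D4:**
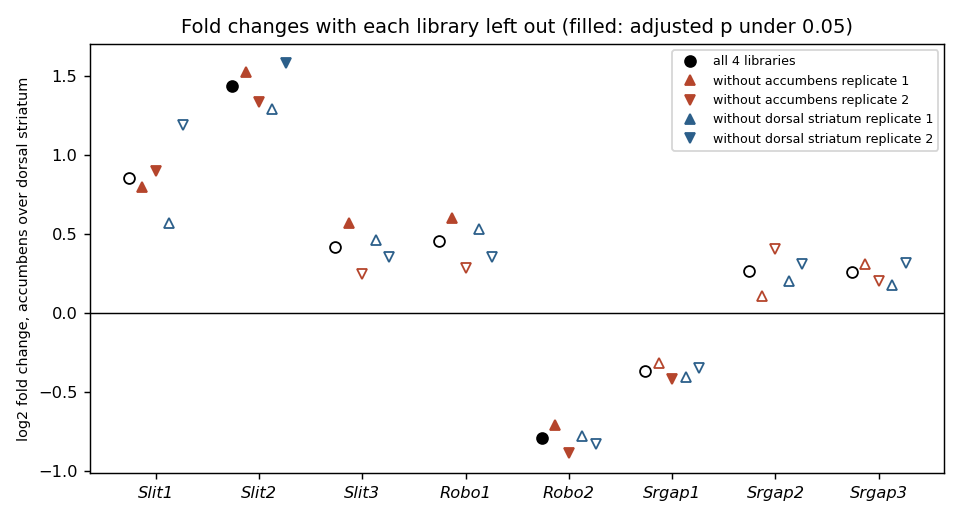
Log2 fold change, accumbens over dorsal striatum, of the 8 tested genes with all 4 libraries and with each library left out, where filled symbols mark an adjusted p under 0.05. All values keep their sign, Slit2 runs from 1.30 to 1.58 without a library, and Robo2 from −0.89 to −0.71.

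The other genes of the pathway were 48 genes in lists of relatives, cofactors and other ligands, heparan sulfate enzymes, intracellular effectors and the Slitrk family. All 48 were tested. At an edgeR adjusted p under 0.05, 4 were higher in accumbens and 0 were lower, where 0.994% of all tested genes were higher and 0.29% lower. Fold changes were positive in 36 and negative in 12, and 51.4% of all tested genes had a positive one. With library size alone 32 of the 48 were positive, against 38.7% of all tested genes. At an unadjusted p under 0.05 there were 17 higher and 2 lower, where 10.9% of all tested genes were higher and 8.27% lower. DESeq2 called 9 higher and 1 lower, with 6.89% and 3.48% of the genes it gave an adjusted p for, and limma-voom 6 and 0, with 2.14% and 0.835% of all tested genes. The median log2 fold change of the 48 was 0.28, against 0.02 over all tested genes. The same shares are the background for the counts in each list below, and the lists were chosen with earlier results known, so nothing particular to them is read from the counts. The genes that passed were Plxna1, Cdh2, Rac1 and Slitrk1.

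Among 14 cofactors and other ligands, 1 passed, where 1.28% of all tested genes did, 12 had positive fold changes, against 51.4% of all tested genes, and the median log2 fold change was 0.34. It was Plxna1, which encodes a semaphorin receptor that also binds a fragment of Slit, at 76.1 and 91.8 CPM in accumbens, against 37.7 and 43.9 CPM in dorsal striatum. Its log2 fold change was 1.04 with an SE of 0.18 (edgeR adjusted p = 0.0438). Leaving out dorsal striatum replicate 1 gave an adjusted p of 0.223, leaving out replicate 2 gave 0.0716, and scaling by library size gave 0.0558. DESeq2 called 3 genes of this list, Plxna1 and the Robo1 co-receptor family genes Flrt2 and Flrt3, all higher in accumbens, and limma-voom called 1. Flrt2 stood at 76.2 and 71.0 CPM in accumbens, against 46.8 and 42.9 CPM in dorsal striatum, and its edgeR adjusted p was 0.0808.

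Of 20 intracellular effectors 2 passed, with 11 positive and 9 negative fold changes (9 and 11 with library size alone) and a median log2 fold change of 0.10. Cdh2, the gene of N-cadherin, whose adhesion Robo signalling is known to reduce, stood at 127 and 105 CPM in accumbens, against 56.7 and 60.0 CPM in dorsal striatum, a log2 fold change of 0.99 with an SE of 0.16 (edgeR adjusted p = 0.0431). Rac1, a gene known for its part in actin remodelling, stood at 618 and 643 CPM in accumbens, against 421 and 407 CPM in dorsal striatum, a log2 fold change of 0.61 with an SE of 0.11 (edgeR adjusted p = 0.0491). Both missed the threshold without dorsal striatum replicate 1 (0.115 and 0.123), without dorsal striatum replicate 2 (0.0706 and 0.169) and with library size alone (0.051 and 0.0834). Rac1 also missed it with DESeq2 size factors and upper-quartile scaling (0.0545 and 0.0555). DESeq2 called 4 genes of this list higher and 1 lower in accumbens, and limma-voom 3 and 0. The lower one was Gsk3b, at 766 and 846 CPM in accumbens, against 1051 and 1038 CPM in dorsal striatum (edgeR adjusted p = 0.128).

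Of the 6 heparan sulfate enzyme genes 0 passed in edgeR, with 5 positive fold changes, against 51.4% of all tested genes, and a median log2 fold change of 0.35. At an unadjusted p under 0.05 there were 2, where 19.2% of all tested genes passed, both higher in accumbens, and DESeq2 and limma-voom called 1 each, Ext2. Ndst1, which starts the sulfation of heparan sulfate chains, had 119 and 94.0 CPM in accumbens, against 88.7 and 91.8 CPM in dorsal striatum. Hs2st1, a sulfotransferase gene of the same chains, had 60.1 and 63.9 CPM in accumbens, against 66.0 and 77.1 CPM in dorsal striatum. The chain polymerase gene Ext2 had 81.8 and 87.6 CPM in accumbens, against 35.6 and 47.5 CPM in dorsal striatum, a log2 fold change of 1.02 with an SE of 0.19 (edgeR adjusted p = 0.051).

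Of the 6 Slitrk genes, which encode synaptic adhesion proteins with leucine-rich repeats like those of Slit, Slitrk1 passed, where 1.28% of all tested genes did. All 6 fold changes were positive, against 51.4% of all tested genes, with a log2 median of 0.26, while upper-quartile scaling left 5 positive and plain library size 4. Slitrk1 stood at 124 and 112 CPM in accumbens, against 55.6 and 52.4 CPM in dorsal striatum. Its log2 fold change was 1.13 with an SE of 0.16 (edgeR adjusted p = 0.0268), and it passed with each library left out, at an adjusted p of at most 0.0478.

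**Figure D5:**
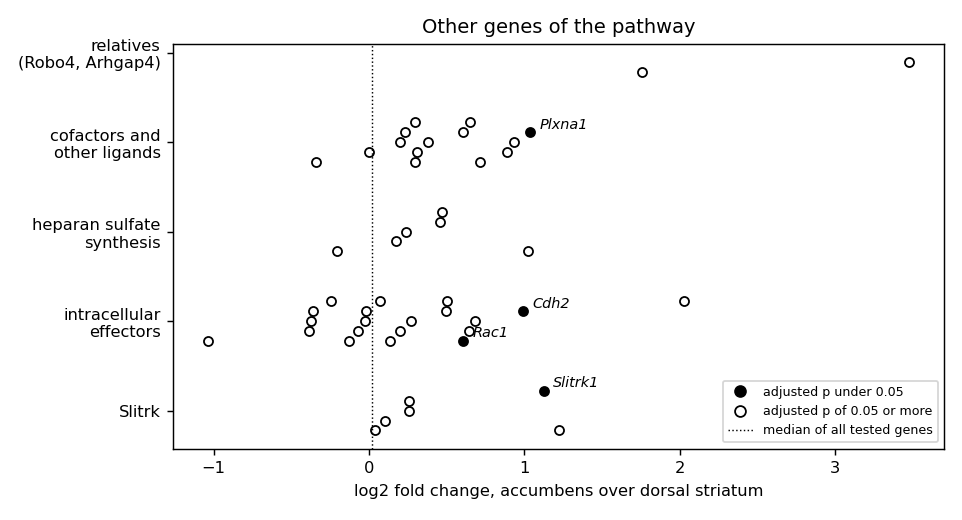
Log2 fold change, accumbens over dorsal striatum, of the 48 tested genes of the pathway lists, 1 point per gene and 1 line of points per list, with vertical offsets only to separate points. Filled points, named in italics, passed an adjusted p of 0.05, and Plxna1, Cdh2, Rac1 and Slitrk1 lie between 0.61 and 1.13.

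Of the 2 relatives 0 passed in edgeR, DESeq2 or limma-voom, with 1, Robo4, at an unadjusted p under 0.05 in edgeR. Robo4, the Robo gene of endothelial cells, stood at 11.8 and 3.50 CPM in accumbens, against 1.16 and 0.239 CPM in dorsal striatum (edgeR adjusted p = 0.105). The summed level of 8 endothelial and mural markers was 55.4 and 20.9 CPM in accumbens, against 35.7 and 18.0 CPM in dorsal striatum, and the regions overlapped. The median log2 fold change of the 6 of them that were tested was 0.05, and Cldn5 and Acta2 were at 0 in at least 1 library. The part of vascular cells in the Robo4 values was not tested. Arhgap4, the more distant member of the srGAP family, was at 4.58 and 2.38 CPM in accumbens, against 1.68 and 0.398 CPM in dorsal striatum (edgeR adjusted p = 0.337).

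The genes whose pattern over the 4 libraries lay closest to a member were found for the 2 members with the largest absolute fold changes, by the Euclidean distance between log2 CPM values centred per gene. For Slit2 they were the protocadherin gene Pcdhb10 at a distance of 0.11, the heparan sulfate enzyme gene Ndst4 at 0.13 and the LIM-only factor gene Lmo4 at 0.15. Ndst4 was also among the septum markers above. Lmo4 was at 124 and 123 CPM in accumbens, against 42.9 and 50.2 CPM in dorsal striatum. For Slit1 they were Bloc1s3 at 0.04, the cGMP-dependent kinase gene Prkg1 at 0.06 and the signal recognition particle gene Srp14 at 0.07, all of them with the same lower dorsal striatum replicate 1 as Slit1. The search covered only tested genes with a gene symbol, leaving out names of the Gm-number, LOC, Rik, BC-number, microRNA and GenBank types. These are distances over 4 libraries and carry no test.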

How the data were processed

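Total RNA of 4 libraries was analysed, 2 from accumbens and 2 from dorsal striatum, grouped by the tissue in the labels. Per gene symbol, the deposited files give raw read counts made by the authors with STAR 2.0.0e, HTSeq and the build mm10, per the submitters' processing notes. Annotation and strand setting: not given in the sources used here. Rows for reads in no feature (27.5% to 35.4% of all counted reads), ambiguous reads (6.06% to 9.46%) and multiple alignments (6.98% to 10.2%) stayed out of library sizes and tests.

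Counts were scaled by TMM, filtered with filterByExpr and compared by region in edgeR 4.0.16 (R 4.3.3; quasi-likelihood F test, no covariate), two-sided, Benjamini-Hochberg adjusted over all 14493 tested genes with a threshold of 0.05. The SE is |log2 fold change| over the root of F. The procedure was tested on simulated data. Floors (3 counts) cover counting error only. Gene models came from GENCODE M21 on GRCm38, the assembly of mm10.

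The members and lists were chosen with earlier results of these data known. The naming rule took all members, every list gene past the threshold, otherwise the 2 with the highest CPM, and the 3 nearest patterns of 2 members. Ext2, Flrt2, Flrt3 and Gsk3b were named after their values were seen. Alternatives covered scaling, filter, DESeq2 1.42.0, limma-voom (limma 3.58.1), a replicate block, the 50 most abundant genes left out, each library left out and the transcript length. The replicate numbers give no pairing by the labels.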

Additional observations from a re-analysis of the deposited data

How the results depend on the processing

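All 8 tested genes kept the sign of their fold change under each of the 12 alternatives run. The member count of 2 (Slit2 and Robo2) was the same under every other scaling, without the low-count filter, with DESeq2, with limma-voom and without the 50 most abundant genes; over these alternatives and the block, which use all 4 libraries, log2 fold changes ran from 1.27 to 1.45 for Slit2 and from −0.96 to −0.79 for Robo2. Leaving out a library moved the member count between 0 and 6. The 6 came without accumbens replicate 1. They include Robo3, which the filter otherwise removes and which had a count of 0 in the single accumbens library left, so that call is not read. Without accumbens replicate 2 it was 4. For the dorsal striatum libraries the count was 0 when replicate 1 was left out and 1 when replicate 2 was. The share of all genes called in the same fits is given above with Slit1, Slit2 and Robo2. It was also far higher without an accumbens library than without a dorsal striatum library. Nothing particular to the members is therefore read from these member counts. The cause of the shifts was not tested. Without a library the log2 fold changes ran from 0.57 to 1.19 for Slit1, 1.30 to 1.58 for Slit2, 0.25 to 0.57 for Slit3, 0.29 to 0.60 for Robo1, −0.89 to −0.71 for Robo2, −0.42 to −0.32 for Srgap1, 0.11 to 0.41 for Srgap2 and 0.18 to 0.32 for Srgap3. With library size alone Srgap2 had 0.10 and Srgap3 0.09.

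The count of 186 genes past the threshold became 1203 without the low-count filter, 918 with DESeq2 and 431 with limma-voom, and ran from 109 to 4464 without a library. With a replicate block it was 843, and the block changed no call among the members. Deviations of same-numbered libraries from their region means had a correlation of 0.03 over genes. A correlation over all genes cannot tell whether same-numbered libraries share an animal or a dissection. Under library size alone the median over all genes was −0.15 on the log2 scale, in place of 0.02. With the median transcript length the levels of Robo2 and Srgap2 were 34.6 and 40.3 CPM per kilobase. Robo3 and both miR-218 hairpin rows had too few counts to compare, and the cause was not tested.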
